A study of Mus musculus with 48 samples.

Results

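The genes described here are 35 members of the unfolded protein response and of the amino acid response that runs through the transcription factor ATF4, followed across 48 mouse brain hemispheres. They were taken from the deposited table of counts by symbol: 19 genes of the endoplasmic reticulum (ER) branch, which are ER chaperones, folding enzymes, stress sensors and degradation factors, and 16 genes of the amino acid branch, which are ATF4, its partners and targets, and the enzymes of serine and one-carbon synthesis. The table held 56893 genes, of which 17352 had counts high enough to test, and all 35 members were among these. Each library came from the hemisphere of 1 adult mouse aged between 5.5 and 8.5 months. Controls were labelled Grin1fl/fl, apart from 1 mouse labelled Grin1fl/+ (female control unrestricted replicate 2), and carried no recombinase. Knockouts were labelled Aldh1a1+/P2A-CreERT2::Grin1fl/fl, so the NMDA receptor gene Grin1 was to be lost only where Aldh1a1 drives the recombinase, and how CreERT2 was induced is not given in the sources used here. Unrestricted mice had not been food restricted, restricted mice were collected after 2 nights of food restriction with chow in between, and refed mice had 2 such nights followed by 3 days of free access to grain-based pellets. Mice of all states had been moved to individual cages. With 2 sexes, 2 genotypes and 3 states there were 12 groups, each of 4 mice, and the series was set up to ask how the effect of the knockout depends on sex and feeding state.

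The unfolded protein response is the reaction of a cell to proteins that fail to fold in the ER. Its sensors are IRE1 (gene Ern1), which splices Xbp1 mRNA, PERK (gene Eif2ak3), which phosphorylates the translation factor eIF2alpha, and ATF6, which is released from its membrane by cleavage and then raises transcription of ER chaperones. PERK shares its target with kinases that sense amino acid shortage, and phosphorylated eIF2alpha favours translation of Atf4 mRNA, so that ATF4 protein can rise with no change of its mRNA. ATF4 raises genes for amino acid supply and tRNA charging, and in the brain the serine pathway is most active in astrocytes. Gene counts show neither the splicing of Xbp1, nor the cleavage of ATF6, nor the translation of Atf4.

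The promoter elements through which these branches are known to act are shown first. Whether they had a part in the changes with feeding described below was not tested. Windows of 300 bases, 250 before and 50 after the RefSeq start (GRCm38.p6), were available for 16 of the 19 ER members and all 16 amino acid members. The ER stress response element (ERSE), bound by ATF6 together with the CCAAT-binding factor NF-Y, was searched on both strands as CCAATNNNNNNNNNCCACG. It was found in 0.137% of the 27025 genes with a window, in 7 of the 16 ER members and in 0 of the 16 amino acid members. The matches are shown in the orientation of the element, with its fixed letters in capitals.
Calr, chr8:84847075-84847093, plus strand: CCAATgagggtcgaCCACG
Canx, chr11:50325800-50325818, minus strand: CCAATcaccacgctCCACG
Creld2, chr15:88819520-88819538, minus strand: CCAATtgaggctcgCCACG
Dnajc3, chr14:118937827-118937845, plus strand: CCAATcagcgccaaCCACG
Hsp90b1, chr10:86705638-86705656, minus strand: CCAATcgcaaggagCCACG
Hsp90b1, chr10:86705533-86705551, plus strand: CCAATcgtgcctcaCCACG
Hspa5, chr2:34772025-34772043, plus strand: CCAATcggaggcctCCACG
Pdia6, chr12:17266491-17266509, plus strand: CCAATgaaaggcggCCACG
Of these 7 genes, all but Dnajc3 belong to the 11 ER members that were higher after refeeding than after restriction. Those 11 made up most of the 16 ER members with a window, and the other 5 of the 11 held no ERSE. The related element ERSE-II, searched as ATTGG and CCACG with 1 base between them, was in 0.0444% of genes and in the ER members Dnajb11 and Herpud1. The ATF4 element (CARE), searched as TGATGNAA, was in 4.51% of genes, in 4 amino acid members (Aars, with 2 matches, Asns, Chac1 and Trib3) and in 1 ER member, Herpud1. It was in 0 of the 6 amino acid members that were lower after refeeding. The cAMP response element, TGACGTCA, was in 2.03% of genes and in Ppp1r15a, and the XBP1 element, TGACGTGG, was in 0.714% of genes and in no member. No match overlapped one of another motif. A match of letters is a description and not a measured binding site, and the windows leave out introns, where such elements can also lie.

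The windows of 4 genes are shown to set their elements beside the values that follow: the chaperone with the best known element (Hspa5), the chaperone with 2 matches (Hsp90b1), the degradation factor that holds both kinds of element (Herpud1) and the tRNA ligase with the ATF4 element (Aars). They are printed as the 250 bases before the start, read in the direction of the gene, with the ERSE, ERSE-II or CARE matches in capitals.
Hspa5, chr2:34771840-34772089, plus strand: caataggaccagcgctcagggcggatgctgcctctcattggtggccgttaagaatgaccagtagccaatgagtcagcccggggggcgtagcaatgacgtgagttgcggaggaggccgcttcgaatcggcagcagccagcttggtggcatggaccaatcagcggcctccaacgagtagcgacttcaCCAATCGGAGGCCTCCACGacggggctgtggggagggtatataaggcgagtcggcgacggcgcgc
Hsp90b1, chr10:86705445-86705694, minus strand: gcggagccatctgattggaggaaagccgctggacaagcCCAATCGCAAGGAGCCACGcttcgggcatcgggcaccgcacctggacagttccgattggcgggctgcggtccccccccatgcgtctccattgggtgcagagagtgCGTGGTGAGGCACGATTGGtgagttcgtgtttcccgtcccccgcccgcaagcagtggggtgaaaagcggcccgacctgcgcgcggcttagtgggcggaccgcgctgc
Herpud1, chr8:94386179-94386428, plus strand: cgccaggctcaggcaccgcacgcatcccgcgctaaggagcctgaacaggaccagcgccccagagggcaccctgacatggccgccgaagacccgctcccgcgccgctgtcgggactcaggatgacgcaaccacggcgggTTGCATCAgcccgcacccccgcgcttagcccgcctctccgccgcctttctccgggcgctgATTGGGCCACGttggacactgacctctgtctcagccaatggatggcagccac
Aars, chr8:111033592-111033841, plus strand: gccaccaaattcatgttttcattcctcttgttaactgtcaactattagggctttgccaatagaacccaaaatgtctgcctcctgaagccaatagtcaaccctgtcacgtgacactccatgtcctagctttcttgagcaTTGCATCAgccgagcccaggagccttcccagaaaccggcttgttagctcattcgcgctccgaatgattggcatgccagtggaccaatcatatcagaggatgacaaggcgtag
In Hsp90b1 and Herpud1 the capitals mark 2 matches each, the second match of Aars lies after the start and is not in the printed bases, and a match to the opposite strand appears as the reverse complement of the element. The plot of motif positions shows all members with a match.

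**Figure D1:**
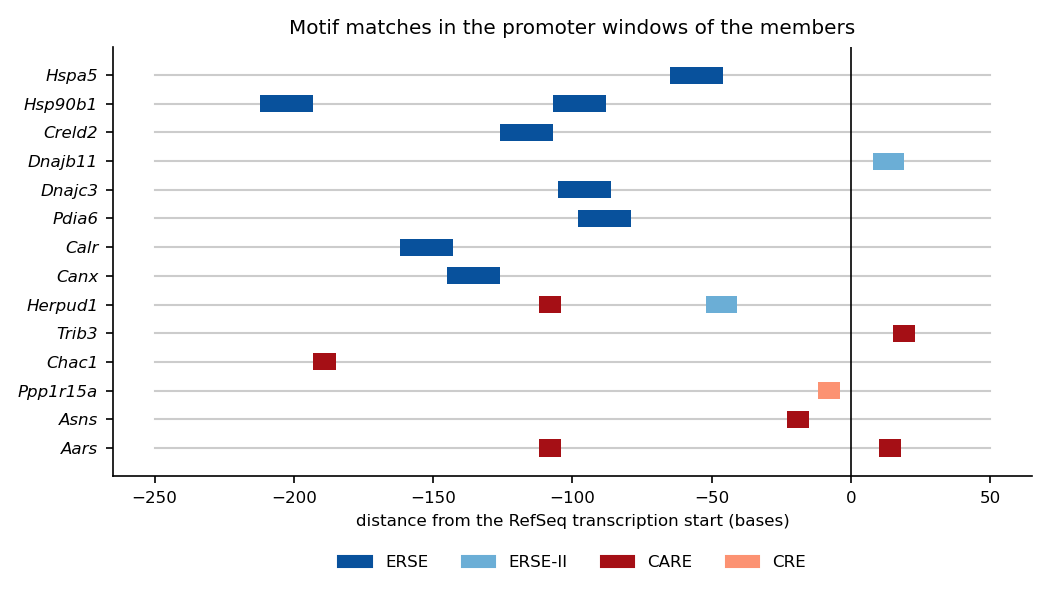
Positions of motif matches in the 300-base promoter windows of the 14 members with a match; the horizontal axis is the distance from the RefSeq start in bases, each row is a gene and each bar a match on either strand. The ERSE matches of Hspa5, Hsp90b1, Creld2, Dnajc3, Pdia6, Calr and Canx lie before the start, and the CARE matches fall in Herpud1, Trib3, Chac1, Asns and Aars.

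Library totals ran from 7574827 to 16185373 counts with a median of 10515486, and levels are given as CPM (the count of a gene relative to the library total) scaled by TMM factors. The lowest count of any member in any library was 1, for Trib3, and no other member fell below 18 counts. Grin1 itself stood at 351 ± 49.3 CPM in controls and 356 ± 29.4 CPM in knockouts (SD, n = 24 each), so its loss was not detectable in whole hemispheres, whereas Aldh1a1, which carries the recombinase, stood at 190.3 ± 27.3 and 101 ± 16.7 CPM. Fewer cells of a type and less RNA per cell cannot be told apart in such bulk samples. The p-values measure the spread between mice, each of which gave 1 library. All 16 refed libraries carry library numbers up to 28 in the labels, against 7 restricted and 5 unrestricted libraries, so results are also given within these 28 libraries. Male control refed replicate 1, which held skeletal muscle RNA (Acta1 at 1143 CPM), had the highest value of all 48 libraries for 12 of the 35 members. Male control refed replicate 2 had the highest value for 5 others (Dnajb9, Xbp1, Asns, Psat1 and Psph) and the lowest for 4 (Hyou1, Eif2ak3, Slc3a2 and Aars). Counts are given without these libraries where that changes them.

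Per length, the ER chaperones led the members: among the 34 with a transcript length, Calr had a mean level of 112 CPM per kilobase, Hsp90b1 76.3, Canx 67.8, Atf4 64.7 and Psat1 52.9. At the other end of the same scale lay Ern1 at 2.06 and Trib3 at 0.283 CPM per kilobase. Trib3, a pseudokinase that restrains ATF4, was so low, with a mean level of 0.592 CPM, that a change would hardly be detectable at this depth.

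Restricted mice had lower levels of some ER folding genes and higher levels of some amino acid genes. Against unrestricted mice, 5 of the 19 ER members were called (adjusted p under 0.05 over all genes), Herpud1 higher and Calr, Pdia3, Pdia6 and Hsp90b1 lower. Of the 16 amino acid members 4 were called, all higher: Psat1, Sesn2, Ppp1r15a and Aars. Of all genes tested 15.2% were called in this comparison, 7.31% higher and 7.84% lower. The median log2 change was -0.07 for ER members and 0.08 for amino acid members, beside -0.000457 for all genes.

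Between refed and restricted mice more members were called, and most ER members called were higher after refeeding. Against restricted mice, 13 of the 19 ER members were called, 11 of them higher, and 7 of the 16 amino acid members were called, 6 of them lower. Of all genes 15.2% were called, 8.38% higher and 6.79% lower. The median log2 change was 0.13 in the ER branch and -0.06 in the amino acid branch, beside -0.001 for all genes. The 2 comparisons share the restricted libraries, so opposite signs in them are no separate observations, and each is given with its own values.

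**Figure D2:**
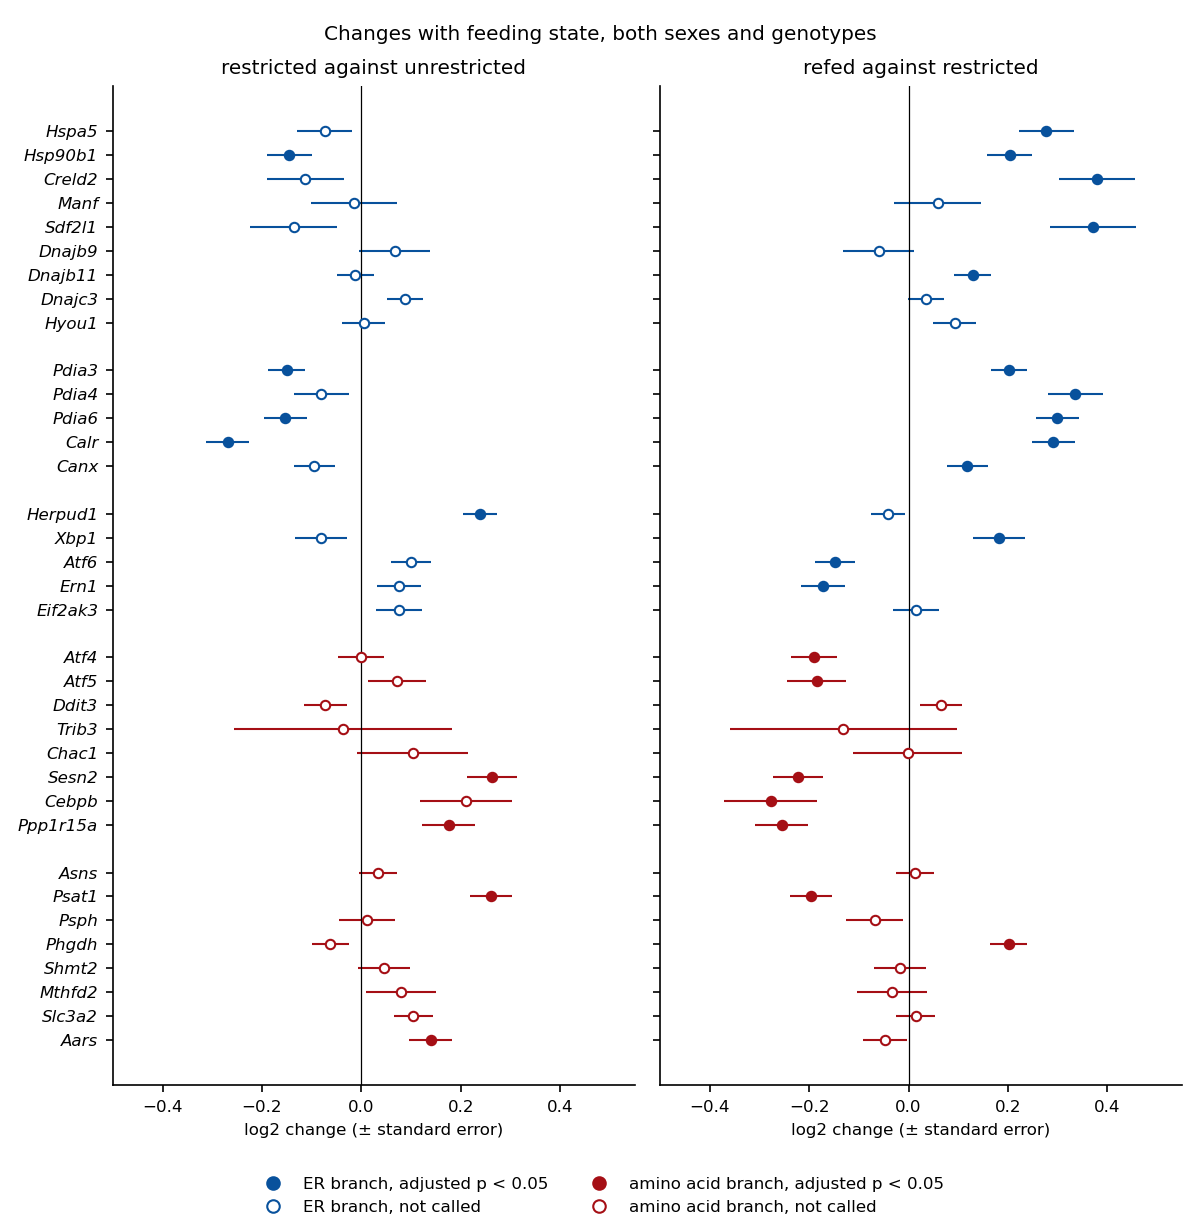
Log2 changes of the 35 members, averaged over sex and genotype, for restricted against unrestricted (left) and refed against restricted (right) mice; points are edgeR estimates with standard errors, blue for the ER branch and red for the amino acid branch, and filled points passed the adjusted p. On the right all 5 disulfide isomerases and lectin chaperones lie above 0, between 0.12 and 0.34, and 5 of the 8 transcription factors and feedback regulators are called below 0.

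The lectin chaperones and disulfide isomerases, which fold glycoproteins and form their disulfide bonds, were the most uniform group: 3 of 5 were called lower in restricted mice and 5 of 5 higher in refed mice. Calr, the calcium-binding lectin chaperone calreticulin, stood at 244, 268 and 319 CPM (lowest, median and highest of 16) in unrestricted libraries, at 185, 221 and 273 in restricted and at 252, 269 and 325 in refed libraries. Of the 16 restricted libraries 13 lay below every unrestricted library, and 16 of 16 refed libraries lay above the restricted median. The log2 change was -0.27 ± 0.043 (SE) with restriction (edgeR, adjusted p = 9.58e-06) and 0.29 ± 0.043 with refeeding (edgeR, adjusted p = 2.49e-06). Canx, its membrane-bound relative calnexin, stood at 226, 264 and 293 CPM in unrestricted, 203, 246 and 273 in restricted and 222, 268 and 319 in refed libraries. The groups overlapped, and only refeeding was called, at 0.12 ± 0.041 (edgeR, adjusted p = 0.0444). That call was lost in 8 of 13 alternatives, with adjusted p-values between 0.0172 and 0.469.

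Pdia3, the disulfide isomerase that works with both lectins, stood at 118, 129.5 and 155 CPM in unrestricted, 104, 118 and 137 in restricted and 122, 137.5 and 154 in refed libraries. It changed by -0.15 ± 0.037 with restriction (edgeR, adjusted p = 0.0028) and by 0.20 ± 0.037 with refeeding (edgeR, adjusted p = 7.1e-05). Pdia6, which also attenuates IRE1 signalling, stood at 59.8, 67.3 and 78.0 CPM, then 53.0, 59.6 and 72.8, then 67.3, 76.0 and 86.0 in the same order of states. Its restricted and refed libraries were the most clearly separated of these isomerases, with 10 of 16 refed libraries above every restricted library. Pdia6 changed by -0.15 ± 0.043 with restriction (edgeR, adjusted p = 0.0106) and 0.30 ± 0.043 with refeeding (edgeR, adjusted p = 1.41e-06). Pdia4, an isomerase found in complexes with the chaperone BiP, stood at 22.2, 29.85 and 34.7 CPM, then 21.9, 27.2 and 34.1, then 30.03, 33.7 and 39.7. All 16 refed libraries lay above the medians of both other states. Pdia4 rose by 0.34 ± 0.055 with refeeding (edgeR, adjusted p = 1.62e-05) and was at -0.08 ± 0.056 with restriction (edgeR, adjusted p = 0.38).

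Among the Hsp70 and Hsp90 chaperones and their partners, 1 of 9 was lower in restricted mice and 5 of 9 were higher in refed mice. Hspa5, which encodes BiP, the ER chaperone that holds the sensors inactive, stood at 168, 193 and 240.3 CPM in unrestricted, 151, 174 and 251 in restricted and 199, 224 and 257 in refed libraries. All 16 refed libraries lay above the restricted median, but the states overlapped, and the highest restricted library, female control restricted replicate 3, stood below only 1 refed library. Hspa5 rose by 0.28 ± 0.055 with refeeding (edgeR, adjusted p = 0.000241), and its change of -0.07 ± 0.055 with restriction was not called (edgeR, adjusted p = 0.417). Hsp90b1, the ER member of the Hsp90 family, stood at 195, 217.5 and 264 CPM, then 163, 199.5 and 245, then 183, 231 and 261.5. Of 16 restricted libraries 15 lay below the unrestricted median. Hsp90b1 changed by -0.14 ± 0.045 with restriction (edgeR, adjusted p = 0.0221) and by 0.20 ± 0.045 with refeeding (edgeR, adjusted p = 0.00113).

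The largest log2 changes with refeeding were in 2 chaperone partners of low level. Creld2, an ER-resident factor with disulfide isomerase activity, stood at 5.15, 6.86 and 8.70 CPM in unrestricted, 4.25, 6.53 and 8.62 in restricted and 6.365, 8.93 and 10.65 in refed libraries, and changed by 0.38 ± 0.077 with refeeding (edgeR, adjusted p = 0.000355). Sdf2l1, a component of BiP complexes, stood at 6.53, 10.8 and 14.1 CPM, then 5.78, 9.59 and 13.4, then 10.7, 11.7 and 15.2, and changed by 0.37 ± 0.087 (edgeR, adjusted p = 0.00205). Every refed library was above the restricted median for Sdf2l1, and 15 of 16 were for Creld2. Dnajb11, a BiP co-chaperone, stood at 34.8, 39.3 and 43.3 CPM, then 34.5, 39 and 43.2, then 37.5, 42.1 and 50.2, with a change of 0.13 ± 0.037 (edgeR, adjusted p = 0.0132). The Dnajb11 call was kept in 10 of 13 alternatives, with adjusted p-values up to 0.116. The other 4 genes of this group, the secreted factor Manf, the co-chaperones Dnajb9 and Dnajc3 and the large chaperone Hyou1, had log2 changes between -0.06 and 0.09 with refeeding, and none was called. Without male control refed replicate 2, in which Dnajb9 was at 74.8 CPM and Hyou1 at 73.95 CPM, Dnajb9 was called lower at -0.15 (edgeR, adjusted p = 0.0474) and Hyou1 higher at 0.12 (edgeR, adjusted p = 0.0212) with refeeding.

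**Figure D3:**
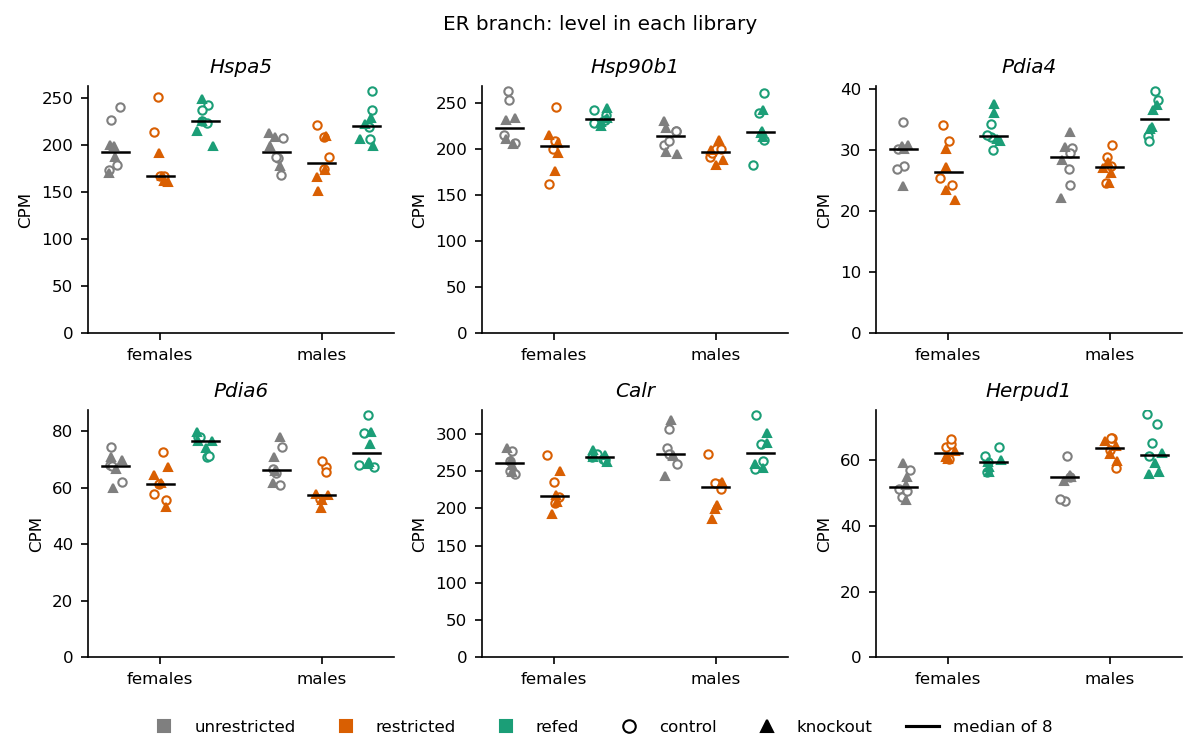
Level of 6 ER branch genes in each library, in CPM on axes from 0, for females (left) and males (right) of each panel; colours give the feeding state, open circles are controls, filled triangles knockouts and lines the median of 8 libraries. Refed libraries of Hspa5, Hsp90b1, Pdia4, Pdia6 and Calr lie around higher medians than restricted ones in both sexes, and Herpud1 is lowest in unrestricted libraries.

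The sensors, Xbp1 and the degradation factor Herpud1 were mixed: 1 of 5 was higher with restriction, and with refeeding 1 was higher and 2 were lower. Herpud1, which recruits components of ER-associated degradation, stood at 47.4, 54.2 and 61.1 CPM in unrestricted, 57.6, 62.8 and 66.7 in restricted and 55.7, 59.6 and 73.8 in refed libraries. Of the restricted libraries 11 of 16 lay above every unrestricted library and 16 of 16 above their median. Herpud1 rose by 0.24 ± 0.034 with restriction (edgeR, adjusted p = 9.7e-07) and was not called lower with refeeding, at -0.04 ± 0.034 (edgeR, adjusted p = 0.441). It is the ER member with both an ERSE-II and a CARE match, shown above. Xbp1, the transcription factor activated by IRE1, stood at 59.3, 69.5 and 80.5 CPM, then 52.7, 64.5 and 84.0, then 67.8, 73.9 and 86.25. Xbp1 rose by 0.18 ± 0.053 with refeeding (edgeR, adjusted p = 0.0132).

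The genes of 2 sensors fell with refeeding. Atf6 stood at 48.2, 55.4 and 64.8 CPM in unrestricted, 52.9, 58.5 and 73.8 in restricted and 47.7, 54.3 and 59.7 in refed libraries, a change of -0.15 ± 0.040 with refeeding (edgeR, adjusted p = 0.00804). Ern1 stood at 12.4, 14.3 and 16.7 CPM, then 13.03, 14.9 and 18.2, then 11.2, 13.7 and 15.2, a change of -0.17 ± 0.045 (edgeR, adjusted p = 0.00574). In both genes the states overlapped, with 14 of 16 refed libraries below the restricted median for Atf6 and 15 of 16 for Ern1. Eif2ak3, the PERK gene, was not called, at 0.02 ± 0.046 with refeeding (edgeR, adjusted p = 0.867).

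In the amino acid branch, 5 of the 8 transcription factors and feedback regulators were called with refeeding, all lower, and 3 were not called. Atf4 stood at 101.5, 115 and 142 CPM in unrestricted, 107.5, 116 and 137 in restricted and 89.4, 101.1 and 127 in refed libraries. The first 2 states overlapped around medians close to each other, and 14 of 16 refed libraries lay below every restricted library. Atf4 changed by -0.19 ± 0.046 with refeeding (edgeR, adjusted p = 0.0031) and was not called with restriction (edgeR, adjusted p = 0.999). Atf5, a relative of Atf4, stood at 18.95, 23.7 and 27.98 CPM, then 18.1, 24.1 and 29.6, then 18.8, 20.9 and 30.15. The highest refed value was that of male control refed replicate 1. Atf5 changed by -0.19 ± 0.059 with refeeding (edgeR, adjusted p = 0.0261). The Atf5 call was kept in 10 of 13 alternatives. It was lost with age as a covariate, with library number as a block and within the 28 libraries of low number (edgeR, adjusted p = 0.0519, 0.168 and 0.375). Cebpb, a dimer partner of ATF4, stood at 4.17, 6.50 and 9.63 CPM, then 5.31, 7.73 and 10.03, then 4.53, 5.78 and 8.86, with a change of -0.28 ± 0.093 (edgeR, adjusted p = 0.0356). The Cebpb call was kept in 9 of 13 alternatives and in 22 of 32 fits that left out a library, with adjusted p-values up to 0.181.

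Ppp1r15a and Sesn2 followed restriction in both directions. Ppp1r15a encodes GADD34, which directs the phosphatase that removes phosphate from eIF2alpha. It stood at 13.1, 15.4 and 19.6 CPM in unrestricted, 14.8, 17.8 and 20.1 in restricted and 12.01, 15.01 and 18.2 in refed libraries. Of 16 restricted libraries 15 lay above the unrestricted median, and of 16 refed libraries 15 lay below the restricted median. Ppp1r15a changed by 0.18 ± 0.053 with restriction (edgeR, adjusted p = 0.0174) and by -0.26 ± 0.053 with refeeding (edgeR, adjusted p = 0.000536). Sesn2, a leucine-binding inhibitor of mTORC1, stood at 10.3, 12.4 and 14.8 CPM, then 11.4, 15.05 and 16.7, then 10.6, 12.5 and 16.7. It rose by 0.26 ± 0.051 with restriction (edgeR, adjusted p = 0.000167), with 10 of 16 restricted libraries above every unrestricted library, and changed by -0.22 ± 0.051 with refeeding (edgeR, adjusted p = 0.00152). The remaining 3 regulators, the pro-apoptotic factor Ddit3 (CHOP), Trib3 and the glutathione-degrading enzyme Chac1, were not called in any feeding comparison. Ddit3 stood between 16.4 and 23.4 CPM over all 48 libraries and was at 0.07 ± 0.043 with refeeding (edgeR, adjusted p = 0.329).

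**Figure D4:**
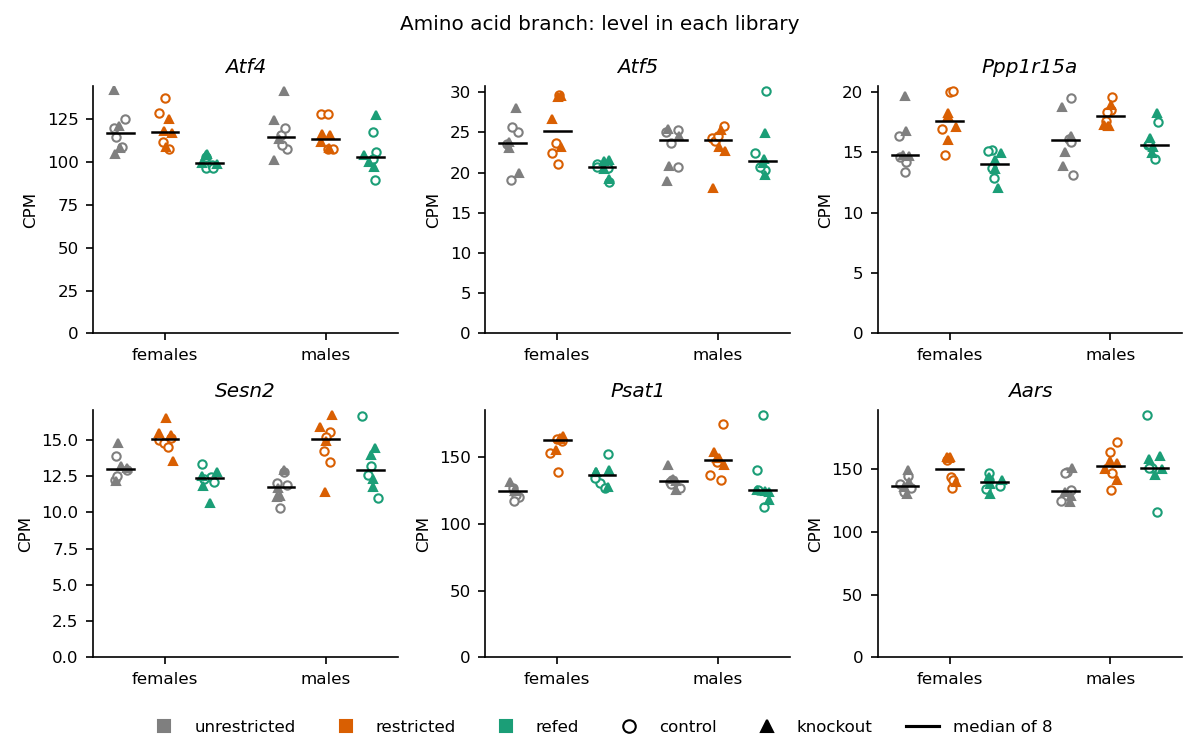
Level of 6 amino acid branch genes in each library, in CPM on axes from 0, for females and males; colours give the feeding state, open circles are controls, filled triangles knockouts and lines the median of 8 libraries. The medians of Psat1, Sesn2 and Ppp1r15a are highest in restricted libraries of both sexes, those of Atf4 are lowest in refed ones, and a refed male control stands alone at 182 CPM of Psat1.

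The supply enzymes moved unequally. Psat1, the aminotransferase of the second step of serine synthesis, stood at 117, 127 and 144 CPM in unrestricted, 133, 154 and 175 in restricted and 113, 129 and 182 in refed libraries. Of the restricted libraries 13 of 16 lay above every unrestricted library, and 9 of 16 refed libraries lay below every restricted library. Psat1 rose by 0.26 ± 0.042 with restriction (edgeR, adjusted p = 8.68e-06) and changed by -0.20 ± 0.042 with refeeding (edgeR, adjusted p = 0.000648). Phgdh, the dehydrogenase of the first step, went the other way with refeeding, at 51.5, 57.0 and 63.6 CPM, then 45, 52.3 and 67.0, then 52.7, 61.8 and 87.0. Phgdh changed by -0.06 ± 0.037 with restriction (edgeR, adjusted p = 0.294) and by 0.20 ± 0.037 with refeeding (edgeR, adjusted p = 0.000104). Mean Phgdh levels were 57.4 CPM in restricted and 58.6 CPM in refed females, against 52.45 and 67.6 CPM in males. By sex, the refeeding change was called in males and not in females. The 2 highest Phgdh values were those of male control refed replicates 1 and 2, at 87.0 and 74.3 CPM. Without these 2 libraries the call over both sexes was kept. Psph, the phosphatase of the last step, was not called, at 0.01 ± 0.057 with restriction (edgeR, adjusted p = 0.933) and -0.07 ± 0.057 with refeeding (edgeR, adjusted p = 0.461).

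Aars, the alanyl-tRNA synthetase with the ATF4 element printed above, stood at 124, 135 and 151 CPM in unrestricted, 133, 152.5 and 172 in restricted and 116, 144.5 and 193 in refed libraries. Both ends of the refed range were the 2 male controls described above. Aars rose by 0.14 ± 0.044 with restriction (edgeR, adjusted p = 0.0241) and was not called with refeeding, at -0.05 ± 0.044 (edgeR, adjusted p = 0.512). Slc3a2, the heavy chain of the amino acid transporters 4F2, stood at 73.1, 80.4 and 85.6 CPM, then 77.9, 85.7 and 96.0, then 70.9, 87.2 and 114, and missed the threshold with restriction at 0.10 ± 0.039 (edgeR, adjusted p = 0.0646). It passed in 7 of 13 alternatives, with adjusted p-values between 0.0091 and 0.584 over all of them. The asparagine synthetase Asns, a classical ATF4 target, was at 0.03 ± 0.038 with restriction and 0.01 ± 0.038 with refeeding (edgeR, adjusted p = 0.632 and 0.865). The mitochondrial one-carbon enzymes Shmt2 and Mthfd2 were not called either, with log2 changes of 0.05 and 0.08 with restriction and -0.02 and -0.03 with refeeding. In all, 13 of the 35 members were called in none of the feeding comparisons: Manf, Dnajb9, Dnajc3, Hyou1, Eif2ak3, Ddit3, Trib3, Chac1, Asns, Psph, Shmt2, Mthfd2 and Slc3a2.

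Within the 28 libraries with low numbers, 11 members were called for refeeding and 1 for restriction, against 20 and 9 in all libraries. The refeeding calls there were Hspa5 at 0.42, Hsp90b1 at 0.20, Pdia3 at 0.20, Pdia4 at 0.40, Pdia6 at 0.33, Calr at 0.30, Manf at 0.35, Sdf2l1 at 0.60 and Xbp1 at 0.33, all higher, and Atf6 at -0.20 and Ppp1r15a at -0.26, both lower. Manf was not called for refeeding in all libraries. Of the amino acid branch only Ppp1r15a kept its refeeding call. The calls of Atf4 and Atf5, each at -0.12, and Cebpb at -0.26 were lost (edgeR, adjusted p up to 0.375). So were those of Psat1 at -0.18, Sesn2 at -0.23 and Phgdh at 0.15 (edgeR, adjusted p up to 0.116). In the ER branch Creld2 at 0.32, Dnajb11 at 0.14, Canx at 0.07 and Ern1 at -0.19 were lost (edgeR, adjusted p up to 0.469). All these kept their sign. The restriction call was Xbp1 at -0.33 (edgeR, adjusted p = 0.0307), which was not called in all libraries. Of all genes 7.04% and 1.88% were called in these 2 fits, against 15.2% in all libraries for each comparison. None of the 9 members called for restriction in all libraries was called within the 28, and all 9 kept their sign. Sesn2 at 0.34, Psat1 at 0.29, Ppp1r15a at 0.23, Aars at 0.16 and Calr at -0.22 had similar changes there, while Herpud1 was smaller at 0.13 (edgeR, adjusted p = 0.286), Pdia3 at -0.07 (edgeR, adjusted p = 0.634), Pdia6 at -0.11 and Hsp90b1 at -0.11. With the library number as a block in the fit of all libraries, 9 members were called for restriction and 16 for refeeding, beside 15% and 11.8% of all genes. Without the libraries over 100 CPM of pituitary markers, the restriction calls of Hsp90b1 at -0.13, Pdia6 at -0.14 and Ppp1r15a at 0.16 were lost (edgeR, adjusted p = 0.0872, 0.0516 and 0.0974).

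Markers of other cell types also differed with feeding. Of 10 oligodendrocyte markers 7 were lower and 1 higher with restriction, and 7 were higher and 1 lower with refeeding, although their summed level, with medians of 12210, 14060 and 12210 CPM in unrestricted, restricted and refed libraries, ran the other way. Of 10 microglial markers 6 were lower with restriction and 7 higher with refeeding, with summed levels from 308 to 361, 267 to 353 and 315 to 372 CPM in the 3 states. Of 10 astrocyte markers 3 were higher and 3 lower with restriction, and none of 10 neuronal markers was called in either comparison. All 5 red cell markers were higher with refeeding, with summed levels from 286.6 to 1343 CPM in unrestricted, 288 to 819 in restricted and 779.5 to 2715 in refed libraries. What these differences contribute to those of the members was not tested.

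By sex, 3 members were called for restriction in females and 5 in males, beside 6.27% and 8.28% of all genes. Calr and Herpud1 were called in both sexes, at -0.22 and 0.25 in females and -0.32 and 0.23 in males. The female call of Calr was kept in 11 of 13 alternatives and in 13 of 16 fits that left out a library. Without the libraries over 100 CPM of pituitary markers, Calr in females was at -0.18 (edgeR, adjusted p = 0.204). Psat1 was called in females, at 0.35 (edgeR, adjusted p = 6.57e-05), and was at 0.17 in males (edgeR, adjusted p = 0.0676). Sesn2, Pdia3 and Ern1 were called in males, at 0.33, -0.16 and 0.21 (edgeR, adjusted p = 0.00185, 0.0437 and 0.0316). The male calls of Pdia3 and Ern1 were kept in 7 and 9 of 13 alternatives and in 6 and 10 of 16 fits that left out a library. The male count was 3 without male control restricted replicate 1 or without replicate 2 of that group, and 9 without the 2 outlying male control refed libraries. Shares of all genes in these fits are not given, so these counts do not show whether a move was particular to the members.

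For refeeding, 11 members were called in females and 10 in males, beside 6.1% and 8.33% of all genes. Hspa5, Pdia3, Pdia4, Pdia6 and Calr were higher in both sexes, with log2 changes between 0.18 and 0.30 in females and between 0.23 and 0.38 in males. Atf4, Atf5, Psat1, Sesn2 and Ppp1r15a were lower in females, at -0.25, -0.32, -0.22, -0.30 and -0.34, and were not called in males. In males Creld2 and Sdf2l1, each at 0.44, and Phgdh at 0.36 were higher, and Atf6 at -0.22 and Ern1 at -0.20 lower. The male calls of Ern1 and Hspa5 were kept in 4 and 8 of 13 alternatives and in 7 and 8 of 16 fits that left out a library, with adjusted p-values up to 0.259 and 0.0891. In females those of Pdia3 and Hsp90b1 were each kept in 9 of 13 alternatives, and in 8 and 10 of 16 such fits. In females 8 of 8 refed libraries lay below every restricted library for Atf4 and for Sesn2, while in males 6 of 8 did so for Atf4 and 1 of 8 for Sesn2. The difference between the sexes was itself tested as sex by feeding state: 0% of all genes passed, and so no member (edgeR; 1101 genes had an unadjusted p under 0.05). The female count was 7 without female control restricted replicate 4, and the male count was 15 without male control refed replicate 2. Whether these moves were particular to the members is not shown, as the shares of all genes in these fits are not given.

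Few members were called between refed and unrestricted mice. Of all genes 0.738% were called between these states, 0.467% higher and 0.271% lower, and 3 members were: Pdia4 higher at 0.25 ± 0.055 (edgeR, adjusted p = 0.0121), Herpud1 higher at 0.20 ± 0.034 (edgeR, adjusted p = 0.00081) and Atf4 lower at -0.19 ± 0.046 (edgeR, adjusted p = 0.0328). Of the 19 ER members 17 had a positive log2 change and the median was 0.10, beside a median near 0 for all genes. Hspa5 and Phgdh, at 0.20 and 0.14, missed the threshold with the same adjusted p of 0.0627 (edgeR). The count was 0 with the library number as a block and 0 within the 28 libraries of low number, in which 0.109% and 0.033% of all genes were called. In these fits Pdia4 was at 0.28 and 0.23, Atf4 at -0.15 in each, Hspa5 at 0.27 and 0.22, and Herpud1 at 0.15 and 0.10. The call of Atf4 was kept in 16 of the 32 fits that left out a library. The number of members called over both sexes was 10 without male control refed replicate 2 and 5 without male knockout unrestricted replicate 1. Shares of all genes are not given for fits that left out a library. Their counts therefore do not show whether a move was particular to the members. By sex, 0 members were called in females (edgeR; 12 had an unadjusted p under 0.05, and voom and DESeq2 called 0), beside 0.0403% of all genes, and Herpud1 alone in males, at 0.23 (edgeR, adjusted p = 0.0276), beside 0.167%. The male count was 8 without male control refed replicate 2. It was 0 without replicate 1 of that group, which had the highest Herpud1 value of all 48 libraries, 73.8 CPM. The male call of Herpud1 was kept in 7 of 13 alternatives and in 8 of 16 fits that left out a library.

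No ER member was called between knockouts and controls. Averaged over sex and feeding state, 0.00576% of all genes were called, and 0 of 35 members (edgeR; 1 member had an unadjusted p under 0.05, and voom and DESeq2 called 0). In the 6 combinations of sex and state the shares of genes called were 0.0115% in unrestricted, 0.386% in restricted and 0.00576% in refed females, and 0.00576%, 0.00576% and 0.225% in the same states of males. The only member called in any of them was Phgdh in restricted females.

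Phgdh (chr3:98220484-98255047, minus strand, GRCm39) stood at 52.8, 48.35, 45 and 51.8 CPM in the 4 control females after restriction and at 66.5, 65.9, 67.0 and 61.9 CPM in the 4 knockouts. The groups did not overlap. The log2 difference was 0.40 ± 0.075 (edgeR, adjusted p = 0.012). An exact two-sided permutation test over the 70 assignments of 4 against 4 gave p = 0.0286, the smallest it can give. Adjusted over the 6 combinations, but not over the members, it gave 0.171. Phgdh was picked for this permutation test by its edgeR call in the same libraries. Groups of 4 that do not overlap always give this p, so it is no separate support. In unrestricted females no difference was called, with means of 55.6 ± 3.28 CPM in controls and 56.3 ± 5.24 CPM in knockouts (SD, n = 4), and likewise in restricted males, with 53.85 ± 3.31 and 51.0 ± 2.16 CPM. In refed males the knockouts were lower, at 62.1 ± 1.97 against 73.0 ± 10.4 CPM, a log2 difference of -0.23 ± 0.074 that was not called (edgeR, adjusted p = 0.349), and that group of controls holds the 2 outlying libraries.

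**Figure D5:**
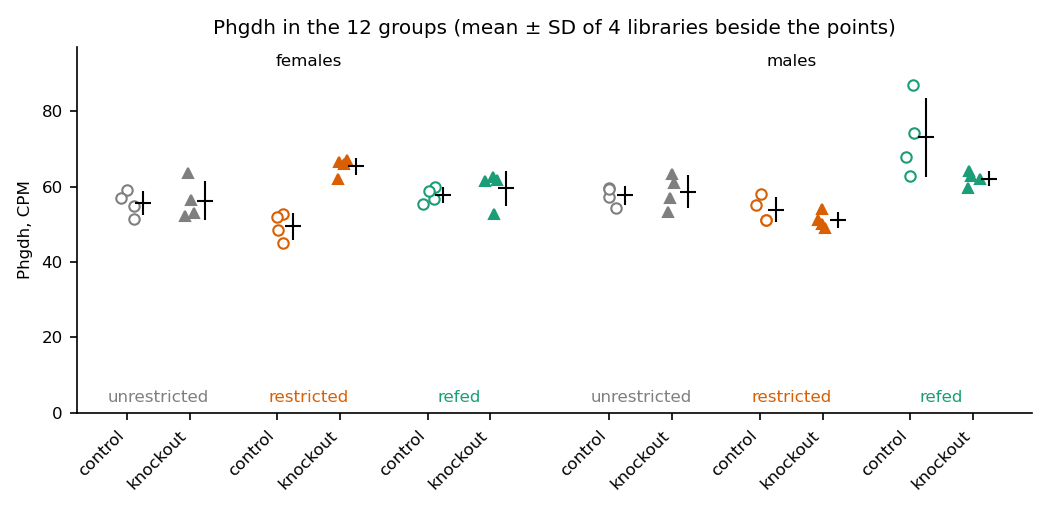
Phgdh in the 12 groups, in CPM on an axis from 0; each point is a library, open circles are controls, filled triangles knockouts, and the bars give the mean and SD of 4 libraries. In restricted females the 4 knockouts, from 61.9 to 67.0 CPM, lie above the 4 controls, from 45 to 52.8 CPM.

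The difference of the Phgdh effect between restricted females and restricted males was 0.47 ± 0.106 and missed the threshold (edgeR, adjusted p = 0.059), in a test that 0.0231% of all genes passed. It was called in 6 of 13 alternatives and in 4 of 16 fits that left out a library, with adjusted p-values between 0.0132 and 0.87 over the alternatives. Between restricted and unrestricted females the difference was 0.38 ± 0.106 (edgeR, adjusted p = 0.271), and 0% of genes passed, although 1457 had an unadjusted p under 0.05. Genotype by feeding state, averaged over sex, was passed by 0% of genes as well (edgeR; 792 had an unadjusted p under 0.05). In restricted females, library number was not balanced over genotype. Knockout replicates 1, 2 and 3 carried numbers up to 28, but of the controls only replicate 1 did. Within the 28 libraries of low number, the Phgdh difference between knockouts and controls was 0.35, with 1 control library. The call in restricted females was lost with GC content removed (0.32, edgeR, adjusted p = 0.0943) and with only the 8 libraries compared (0.40, edgeR, adjusted p = 0.108). It was also lost without female knockout restricted replicate 2, replicate 3 or female control restricted replicate 3. In this same comparison 3 of 10 oligodendrocyte markers, 1 of 10 astrocyte markers and 1 of 10 microglial markers were called, all higher in knockouts, and their part in the Phgdh difference was not tested. Summed pituitary markers reached 1388 CPM in the knockouts and 11.6 CPM in the controls, and without the libraries over 100 CPM of them the Phgdh difference was 0.43 (edgeR, adjusted p = 0.00858).

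Psat1, Psph, Shmt2 and Mthfd2, which act after Phgdh, were not called in restricted females. Neither was any member between the sexes, where 0.357% of all genes were called (edgeR; 2 members had an unadjusted p under 0.05, DESeq2 called 0 and voom 1, Pdia3). Without male control refed replicate 2, Pdia3 was called lower in males, at -0.10 (edgeR, adjusted p = 0.047).

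Other genes of these pathways came from lists that do not include the members. Like the members, these lists were chosen with earlier results of these data known, so their shares are no separate support. Of 56 further ER genes 6 were called with restriction, 2 higher and 4 lower, a share of 10.7% beside 15.2% of all genes. The 5 with the smallest p were the disulfide isomerase Pdia5 at -0.48, Cdk5rap3, a regulator of ER protein modification, at 0.22, Txndc11 at 0.13, the signal recognition receptor subunit Srprb at -0.12 and the signal peptidase subunit Spcs3 at -0.14. With refeeding 6 of 56 were called, 4 higher and 2 lower, again a share of 10.7% beside 15.2% of all genes. Of 59 further amino acid and eIF2 genes tested, 16 were called with restriction, 13 higher and 3 lower, a share of 27.1%. The 5 with the smallest p were all higher: the amino acid transporter Slc38a2 at 0.37, the alanine aminotransferase Gpt2 at 0.42, the mTORC1 inhibitor Ddit4 at 0.71, Cbs of the transsulfuration pathway at 0.32 and the mitochondrial one-carbon enzyme Mthfd1l at 0.47. With refeeding 14 of 59 were called, 5 higher and 9 lower, beside 15.2% of all genes, 8.38% higher and 6.79% lower.

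Across the 48 libraries, deviations from the group mean were compared for 8 pairs of members. Hspa5 and Sdf2l1 varied together, with Pearson r = 0.723 and Spearman rho = 0.725 (permutation within groups, adjusted p = 0.00016 for each), 0.70 without the 2 libraries farthest from the median of Hspa5, and 0.58 and 0.673 within low and high library numbers. Atf4 and Asns had r = 0.466 (adjusted p = 0.0421) and rho = 0.426 (adjusted p = 0.0532, permutation), with r = 0.363 without the 2 farthest libraries and 0.744 and 0.399 within library numbers. Hspa5 and Manf had r = 0.464 (adjusted p = 0.0421) and rho = 0.379 (adjusted p = 0.0736, permutation), but r = -0.03 among the 28 low library numbers, where the relation was not seen, and 0.385 among the 20 high ones. Hspa5 and Atf4, the leading genes of the branches, had r = -0.155 and rho = -0.0825 (adjusted p = 0.473 and 0.632, permutation). The pairs Asns and Psat1, Phgdh and Psat1, Phgdh and Psph, and Ddit3 and Trib3 did not pass, with r between 0.129 and 0.353 and adjusted permutation p between 0.188 and 0.571.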

How the data were processed

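One poly-A RNA-seq library was made from a brain hemisphere of each of 48 mice, in 12 groups of 4 by sex, genotype and feeding state. The authors deposited a table of estimated counts per gene, made with fastp, STAR and Salmon on the mm39 build per the submitters' processing notes, which give no versions. The annotation behind the gene symbols is not given in the sources used here. The estimated counts were rounded to whole numbers. Genes were kept by edgeR's filterByExpr (minimum count 10, minimum total 15), libraries were scaled by TMM, and edgeR 4.0.16 (R 4.3.3) was fitted over all 48 libraries with 1 coefficient per group, using the quasi-likelihood test with Benjamini-Hochberg adjustment over the 17352 genes tested and a threshold of 0.05. Comparisons over both sexes average the groups. Log2 levels use a prior count of 2. The fit was tested on simulated data.

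Total counts of 7574827 to 16185373 per library set the precision. Intervals between libraries rest on 4 mice a group. Full values are given for members called in any test and for the 10 with the smallest p for restriction. The other members are given by ranges and counts. Of 2 further pathway lists, the 5 called genes with the smallest p for restriction are named. The members and lists were chosen with earlier results of these data known. Alternatives were RLE size factors, no filter, age, library number as a block, transcript length and GC trends removed, limma 3.58.1 voom with sample weights, DESeq2 1.42.0, only the groups compared, a threshold of 0.1 and each library left out. Analyses of the 28 libraries of low number, and without libraries that stood apart, were chosen after seeing the data. Relations used 100000 permutations within groups. Promoters are RefSeq GRCm38.p6 and were not converted to the build of the counts.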

Additional observations from a re-analysis of the deposited data

Results flagged for a closer look

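Within sets of libraries of 1 state and sex, or of 1 group, a library was singled out when its gap to the nearest other, divided by the range, passed Dixon's 95% critical value. This held in 9 of 150 sets, and chance singles out about 1 in 20 sets, here 7.5. Psat1 gave 3 of them: female control restricted replicate 4 stood lowest of the restricted females at 138.7 CPM, with the next at 153.4 CPM, male knockout unrestricted replicate 2 stood highest of the unrestricted males at 144 CPM, with the next at 133.7 CPM, and male control refed replicate 2 stood highest of the refed males at 182.1 CPM, with the next at 140.8 CPM. Creld2 gave 2, with female control restricted replicate 3 highest of the restricted females at 8.622 CPM, next 6.963 CPM, and male knockout refed replicate 4 lowest of the refed males at 6.936 CPM, next 8.606 CPM. Pdia3 was highest of the refed females in female control refed replicate 3, at 154.2 CPM beside 141.4 CPM. Dnajb11 was highest of the refed males in male control refed replicate 1, at 50.16 CPM beside 42.62 CPM. Atf5 was lowest of the restricted males in male knockout restricted replicate 3, at 18.06 CPM beside 22.7 CPM. Phgdh was lowest of the 4 refed female knockouts in replicate 1, at 52.67 CPM beside 61.4 CPM.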

How the results depend on the processing

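None of the called changes of members, nor that of Slc3a2 with restriction, turned its direction under the alternatives. For the other uncalled changes with feeding, turns of direction are given only for library number. With restriction, within the 28 libraries of low number, Chac1 went from 0.10 to -0.10, Phgdh from -0.06 to 0.02 and Asns from 0.03 to -0.04. Dnajb9 and Hyou1 turned there too, and Manf and Atf4 with the block, all to values near 0. With refeeding Dnajb9 was at 0.01 with the block and 0.04 within the 28, Eif2ak3 at -0.03 and -0.05, and Psph at 0.00315 and 0.04. Slc3a2 was at -0.03 and -0.02, Asns at -0.02 and 0.02, and Chac1 turned to 0.01 within the 28. Between refed and unrestricted mice, Chac1, Asns, Psph and Shmt2 turned within the 28, and Ddit3, Psph and Shmt2 with the block. Numbers of members called moved as follows. The shares of all genes called under the same settings are not given beside them. The counts therefore do not show whether a move was particular to the members, and the cause was not tested. Within the 28 libraries of low number, fewer libraries are compared. There restriction gave 1 member over both sexes and 0 in each sex, and refeeding gave 11 over both sexes and 4 in females. Refed against unrestricted gave 0 over both sexes and 0 in males. No count is given there for the knockout of restricted females, which had 1 control library. With voom weights, restriction gave 5 in females and 8 in males, refed against unrestricted 9 over both sexes and 6 in males, the knockout of restricted females 2, sex 1, and the difference of the knockout effect 1 both between restricted females and males and between restricted and unrestricted females. For restriction in males, the count was 10 at a threshold of 0.1, 3 with no filter, 8 without the 2 libraries that stand apart (male control refed replicate 1 and female knockout unrestricted replicate 2) and 9 without the 2 outlying male control refed libraries. Refed against unrestricted over both sexes gave 6 at a threshold of 0.1, 0 with the library number as a block and 5 with DESeq2. In males it gave 3 at 0.1, 3 with DESeq2, 3 without the 2 outlying libraries, 2 with the length trend and 2 with the GC trend removed, and 0 with the block, without the 2 libraries that stand apart, without the 6 libraries over 100 CPM of pituitary markers and with only the groups compared. The knockout of restricted females gave 0 with the GC trend removed and 0 with only the groups compared. Sex gave 1 without the 2 outlying libraries. The difference between restricted females and males gave 1 at 0.1, with age, with DESeq2, and without the libraries that stand apart, the outlying ones or those with pituitary markers. Leaving out 1 library at a time gave 9 to 10 members for restriction over both sexes, 2 to 4 in females and 3 to 6 in males, 18 to 22 for refeeding over both sexes, 7 to 12 in females and 7 to 15 in males, 2 to 10 for refed against unrestricted over both sexes, 0 in females and 0 to 8 in males, and 0 to 1 for the knockout of restricted females, the knockout of refed males, sex, and the difference between restricted females and males. The tests of genotype by feeding state and sex by feeding state were not recomputed. No paired analysis was possible because the groups share no replicate numbers in the labels.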
